A study of Arabidopsis thaliana with 11 samples.

Results

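MBD6-RFP was mapped by chromatin immunoprecipitation and sequencing in inflorescences of Arabidopsis thaliana acd15 acd21 double mutants and of wild type plants, and the peak lists of both genotypes were compared site by site. These are 4 of the 11 libraries of the series, 2 from acd15 acd21 and 2 from wild type, all in batch 2. Both groups were of the Col0 ecotype, were kept on a cycle of 16 h light and 8 h dark, carried an MBD6-RFP transgene and were crosslinked in 1% formaldehyde. The acd15 acd21 group differed by that double mutant genotype; the sources used here do not give its alleles, the promoter that drives the transgene, the number of transgenic lines, the level of the fusion protein or the age of the plants, and the labels name no mbd6 mutation. The antibody label reads anti-FLAG although the titles name RFP. Whether replicate 1 and replicate 2 of a genotype were separate plants is not stated, so p-values measure only the spread between these libraries, which may be technical.

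MBD6 binds methylated CG dinucleotides through a methyl-CG-binding domain and, with its relative MBD5, takes part in silencing methylated genes and transposons without removing the methylation. ACD15 and ACD21 carry the alpha-crystallin domain of small heat shock proteins and work in a complex with MBD5 and MBD6, as does the J-domain protein SLN. In Arabidopsis, CG methylation is densest over the transposon-rich DNA around the centromeres and is also found in the bodies of many transcribed genes.

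The comparison asked where MBD6 still had a peak without ACD15 and ACD21, by chromosome zone, by CG density at the peak's summit, and by overlap with the regions where ACD15 and ACD21 were found. A wild type peak was called kept where it overlapped, by at least 1 bp, a peak of the acd15 acd21 list with the same replicate number, and lost otherwise. Lost therefore means that no peak was called in the deposited list. In replicate 1, acd15 acd21 had 3987 peaks and wild type 3492. In replicate 2, acd15 acd21 had 404 peaks and wild type 1244. Read depth is unknown from peak lists, and the lists of the controls without transgene are not used here.

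The sequences under the highest-ranking sites are given as examples of the sites compared. Each window reaches 100 bases to either side of a summit, read from the RefSeq copy of TAIR10.1, with every CG dinucleotide in capitals. The windows are the first by score of each pattern of kept and lost peaks, leaving out any that touch an untranslated region; those kept or lost within 1 replicate number were added after the values were seen.
Held in all 4 lists, chr3:12134956-12135156, plus strand, near AT3G30525: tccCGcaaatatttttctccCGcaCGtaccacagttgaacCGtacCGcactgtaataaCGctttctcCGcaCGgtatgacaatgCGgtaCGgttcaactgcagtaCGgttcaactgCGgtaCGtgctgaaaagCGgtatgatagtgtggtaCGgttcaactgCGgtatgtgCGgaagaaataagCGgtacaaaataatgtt
Held in all 4 lists, chr2:4221616-4221816, plus strand, near AT2G05555: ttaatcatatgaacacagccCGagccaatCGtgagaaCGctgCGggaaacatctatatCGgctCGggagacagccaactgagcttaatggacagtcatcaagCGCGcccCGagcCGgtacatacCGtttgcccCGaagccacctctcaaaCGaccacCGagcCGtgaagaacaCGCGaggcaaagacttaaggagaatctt
Held in both wild type lists only, chr3:8231723-8231923, plus strand, near AT3G04385: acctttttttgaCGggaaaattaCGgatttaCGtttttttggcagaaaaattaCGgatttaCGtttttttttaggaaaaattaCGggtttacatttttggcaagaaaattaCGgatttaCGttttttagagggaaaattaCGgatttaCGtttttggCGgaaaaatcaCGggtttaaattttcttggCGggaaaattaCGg
Held in both wild type lists only, chr3:11396642-11396842, plus strand, near AT3G29580: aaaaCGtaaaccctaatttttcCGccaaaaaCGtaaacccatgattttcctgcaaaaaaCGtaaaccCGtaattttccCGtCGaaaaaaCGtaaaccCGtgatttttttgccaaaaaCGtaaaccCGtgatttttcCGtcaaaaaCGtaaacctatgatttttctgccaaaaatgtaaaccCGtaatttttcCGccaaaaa
Kept at replicate 1, chr1:6455241-6455441, plus strand, near AT1G18710: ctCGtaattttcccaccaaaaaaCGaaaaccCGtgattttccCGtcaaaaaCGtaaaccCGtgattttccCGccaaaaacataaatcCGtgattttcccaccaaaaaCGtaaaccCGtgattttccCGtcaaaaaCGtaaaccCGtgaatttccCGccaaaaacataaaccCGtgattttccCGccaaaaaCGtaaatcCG
Lost at replicate 1, chr1:25400892-25401092, plus strand, near AT1G67750: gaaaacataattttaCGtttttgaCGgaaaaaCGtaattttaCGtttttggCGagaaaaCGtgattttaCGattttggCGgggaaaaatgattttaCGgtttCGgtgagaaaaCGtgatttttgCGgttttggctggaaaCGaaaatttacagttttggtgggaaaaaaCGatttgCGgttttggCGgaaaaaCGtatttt
Kept at replicate 2, chr1:5701886-5702086, plus strand, near AT1G16680: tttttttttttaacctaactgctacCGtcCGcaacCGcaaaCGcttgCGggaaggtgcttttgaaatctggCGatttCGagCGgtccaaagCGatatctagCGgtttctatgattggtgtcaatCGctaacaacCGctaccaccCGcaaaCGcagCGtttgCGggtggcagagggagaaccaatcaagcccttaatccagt
Lost at replicate 2, chr5:9983815-9984015, plus strand, near AT5G27950: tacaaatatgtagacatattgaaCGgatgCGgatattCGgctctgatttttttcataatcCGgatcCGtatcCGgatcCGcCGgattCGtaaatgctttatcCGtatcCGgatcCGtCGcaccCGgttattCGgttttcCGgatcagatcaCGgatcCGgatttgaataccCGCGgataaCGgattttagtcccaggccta

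The windows hold between 14 and 21 CG dinucleotides each, or about 7 to 10 per 100 bp, against 2.34 per 100 bp over the nuclear genome. Both windows held in the wild type lists only are arrays of short tandem repeats, in which the same unit returns with small changes. Their 10-base words that occur more than once in the window, on either strand, made up 40.1% and 45.8% of all words. The top window kept at replicate 1 is an array of the same kind (72.9%), whereas the windows held in all 4 lists had 20.8% and 0%. The lost windows at replicate 1 and replicate 2 had 24.5% and 13.0%, and the window kept at replicate 2 had 7.81%.

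The lists of the 2 replicate numbers shared few sites, which limits every statement made over both. Joined over the 4 lists, the peaks formed 6677 sites. Only 167 sites were in both wild type lists, and 4 were in all 4 lists. Of the 1073 wild type replicate 2 peaks with no overlap in wild type replicate 1, 1066 lay between neighbouring replicate 1 peaks whose numbers are not consecutive, so that at least 1 number was missing from the list. The deposited lists are named as filtered, without the regions taken out. Such stretches made up 66.8% of the genome. The share of peak numbers left in the lists was 42.9% in acd15 acd21 and 53.0% in wild type for replicate 1, and 93.1% in acd15 acd21 and 96.5% in wild type for replicate 2. A site missing from a replicate 1 list can thus be one that was not called or one that was filtered out, and these cannot be told apart.

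Wild type peaks were kept to different extents at the 2 replicate numbers. At replicate 1, 1858 of 3492 wild type peaks were kept (53.2%; 95% exact binomial interval 51.5 to 54.9), and at replicate 2, 294 of 1244 (23.6%; 21.3 to 26.1). These intervals, as all those on shares here, cover counting error over peaks and not the spread between plants. With each pair cut to its shorter list by score, the kept share was 49.3% at replicate 1 (3492 peaks) and 29.5% at replicate 2 (404 peaks). Of the 1634 lost peaks at replicate 1, 1214 lay where a number was missing from the acd15 acd21 list (74.3%, near the 79.1% of the genome that such stretches cover), and 420 did not. At replicate 2, 868 of the 950 lost peaks lay where no number was missing. Leaving out the lost peaks beside a missing number, and no kept peak, can only raise the kept share; it was then 81.6% at replicate 1 and 25.3% at replicate 2, which bounds no true share.

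The sites found in both wild type lists split the 2 acd15 acd21 libraries. Of these 167 sites, 159 had a peak in acd15 acd21 replicate 1 (95.2%; 90.8 to 97.9) and 4 in acd15 acd21 replicate 2 (2.40%; 0.656 to 6.02). No site had a peak in acd15 acd21 replicate 2 without one in replicate 1, and 8 had a peak in neither. Their median CG density was 7.96 per 100 bp and their median GC content 42.3%, against 54.7% for the sites held in wild type replicate 2 but not in wild type replicate 1. Most lay in an ACD15 region (90.4%) and in an ACD21 region (89.2%). Within their wild type lists these sites ranked high at replicate 1 (median score percentile 95.4) and in the middle at replicate 2 (51.7). The kept share of the sites held in both wild type lists was thus high at replicate 1 and low at replicate 2.

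Fewer acd15 acd21 peaks than wild type peaks lay in regions of ACD15 and ACD21, at both replicate numbers. For the merged ACD15 list (11101 regions), the shares were 33.3% and 64.4% in acd15 acd21 replicates 1 and 2, against 66.2% and 83.8% in wild type. The group means were 48.8% ± 22.0 in acd15 acd21 and 74.97% ± 12.4 in wild type (SD, n = 2 each). For the merged ACD21 list (6803 regions), they were 24.8% and 51.5% in acd15 acd21, against 52.9% and 71.1% in wild type. Every acd15 acd21 value was below both wild type values, though narrowly for acd15 acd21 replicate 2 against wild type replicate 1. The difference of the means was -26.2 percentage points for ACD15 and -23.9 for ACD21, and the two-sided exact permutation test of 2 against 2 libraries gave p = 0.33 for each, the smallest it can give. At equal length within the replicate number the differences were -29.8 and -32.5, and with all lists cut to 404 peaks -18.8 and -25. At replicate 1 that cut left ACD15 shares of 89.9% in acd15 acd21 and 97.8% in wild type. The ACD21 shares were 88.4% and 99.0%. Of the acd15 acd21 peaks, those also in wild type lay in ACD15 regions at 59.6% and 79.0% at replicates 1 and 2. Those in acd15 acd21 only did so at 8.52% and 22.1%. The ACD15 and ACD21 libraries belonged to batch 1, and their regions came from plants that have both proteins.

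Overlap with the deposited MBD5/MBD6 regions, a union of broad peaks made from libraries other than the 11 of the series, was also lower in acd15 acd21 at both numbers. It was 47.5% in acd15 acd21 and 82.3% in wild type for replicate 1, and 85.1% in acd15 acd21 and 94.5% in wild type for replicate 2. Here the groups overlapped, since acd15 acd21 replicate 2 lay above wild type replicate 1 (difference of the means -22.1 percentage points; two-sided exact permutation p = 0.667). With all lists cut to 404 peaks, the replicate 1 shares were 97.0% in acd15 acd21 and 98.0% in wild type, and the difference of the means was -6.31. Without acd15 acd21 replicate 1 it was -3.28.

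Peaks in gene bodies were more frequent in acd15 acd21 and peaks in promoters less frequent. Summits in protein-coding gene bodies made up 42.3% and 19.6% of the acd15 acd21 lists, against 14.6% and 12.9% of the wild type lists. Summits within 1 kb upstream of a protein-coding gene made up 7.40% and 4.46% in acd15 acd21, against 15.2% and 10.0% in wild type. Neither pair of groups overlapped, and each gave a two-sided exact permutation p of 0.33, the smallest 2 against 2 libraries allow. With all lists cut to the 404 peaks of highest score, the promoter shares overlapped, at 22.0% and 4.46% in acd15 acd21, against 35.4% and 16.8% in wild type. The gene body difference came mainly from 1 library: it was 28.6 percentage points without acd15 acd21 replicate 2 and 5.82 without acd15 acd21 replicate 1.

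Chromosome zone did not separate the genotypes. Gene-poor bins are the 200 of 1193 bins of 100 kb in which protein-coding exons cover less than 20% of the bases, and lie mostly around the centromeres. They held 36.7% and 60.1% of acd15 acd21 peaks, against 43.6% and 54.7% of wild type peaks. The lowest and the highest of the 4 values were both from acd15 acd21, and the difference of the means was -0.72 percentage points (two-sided exact permutation p = 1). It turned to 6.02 with lists of equal length within the number. Median CG density at the summit was 5.47 and 7.46 per 100 bp in acd15 acd21, against 4.98 and 7.96 in wild type, with no difference between the group means. All 4 medians were above the 2.34 per 100 bp of the genome.

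**Figure D1:**
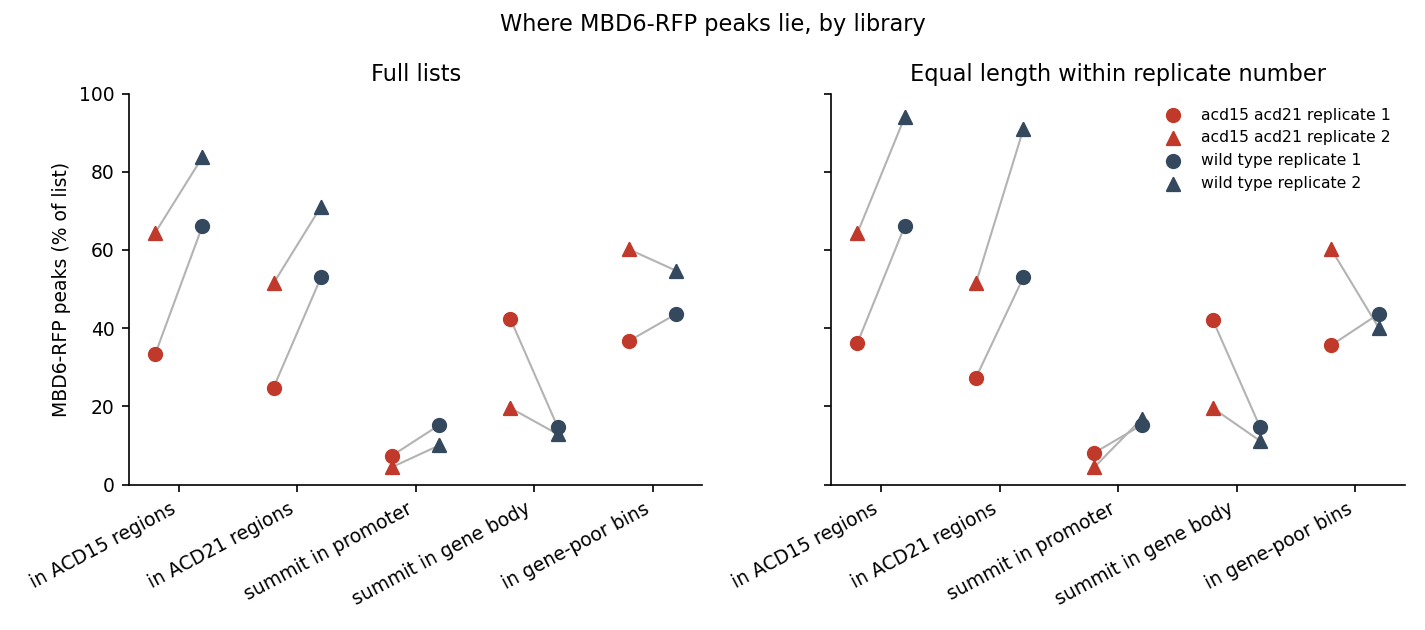
Share of each library's MBD6-RFP peaks (percent of its list, linear axis) in merged ACD15 or ACD21 regions, with the summit in a promoter or gene body, and in gene-poor bins; circles are replicate 1, triangles replicate 2, acd15 acd21 (red) left of wild type (dark), with a grey line joining the same replicate number. The left panel uses full lists and the right panel lists of equal length; in the left panel all 4 lines of the ACD15 and ACD21 columns end lower in acd15 acd21, with ACD15 at replicate 1 at 33.3% in acd15 acd21 and 66.2% in wild type.

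In the full lists, CG-dense wild type peaks were kept more often than CG-poor ones, clearly at replicate 1 and slightly at replicate 2. With the wild type peaks ranked by CG density at the summit and cut into 5 equal groups, the kept shares at replicate 1 were 30.2%, 42.7%, 55.2%, 63.6% and 74.2%, low to high. At replicate 2 they were 20.6%, 23.3%, 22.9%, 24.9% and 26.5%, with intervals that all overlap. The lowest and highest groups of replicate 1 ran up to 3.48 and from 6.47 per 100 bp, and those of replicate 2 up to 6.47 and from 9.95. The lists overlapped in CG density, but the lowest group of replicate 2 reached up to the bound at which the highest group of replicate 1 began. Above against not above the median of its list, the kept share was 68.8% against 42.6% at replicate 1 and 25.3% against 22.2% at replicate 2. The mean difference was 14.6 percentage points, higher at 2 of 2 numbers (two-sided exact sign-flip permutation p = 0.5, the smallest that 2 numbers allow). With lists cut to a score of at least 50, the mean difference was 13.4, but it was above 0 at only 1 of the 2 numbers.

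GC content at the summit, which counts every G and C and was compared after the values were seen, separated kept from lost peaks at both numbers. Over 5 equal groups by GC content, low to high, the kept shares were 31.1%, 39.0%, 48.6%, 59.3% and 88.0% at replicate 1. At replicate 2 they were 8.06%, 17.3%, 25.3%, 32.1% and 35.3%. Kept peaks had a median GC content of 45.3% and lost peaks 40.8% at replicate 1, and kept peaks 56.2% and lost peaks 53.2% at replicate 2. Within the GC-poor peaks of replicate 1, those at or below the median GC content, CG-dense peaks were kept at 52.2% and CG-poor ones at 31.5%. Within its GC-rich peaks the shares were 81.2% and 59.1%. At replicate 2 the CG-dense and CG-poor shares were 14.8% and 14.0% among GC-poor peaks, and 31.5% and 35.0% among GC-rich peaks. Compared within 5 groups of GC content, the CG difference was 16.8 percentage points at replicate 1 and -2.22 at replicate 2. With GC content and score both held, in 25 groups, it was 2.29 at replicate 1, below 0 in 10 of 25 groups, and -6.00 at replicate 2, below 0 in 19 of 25.

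**Figure D2:**
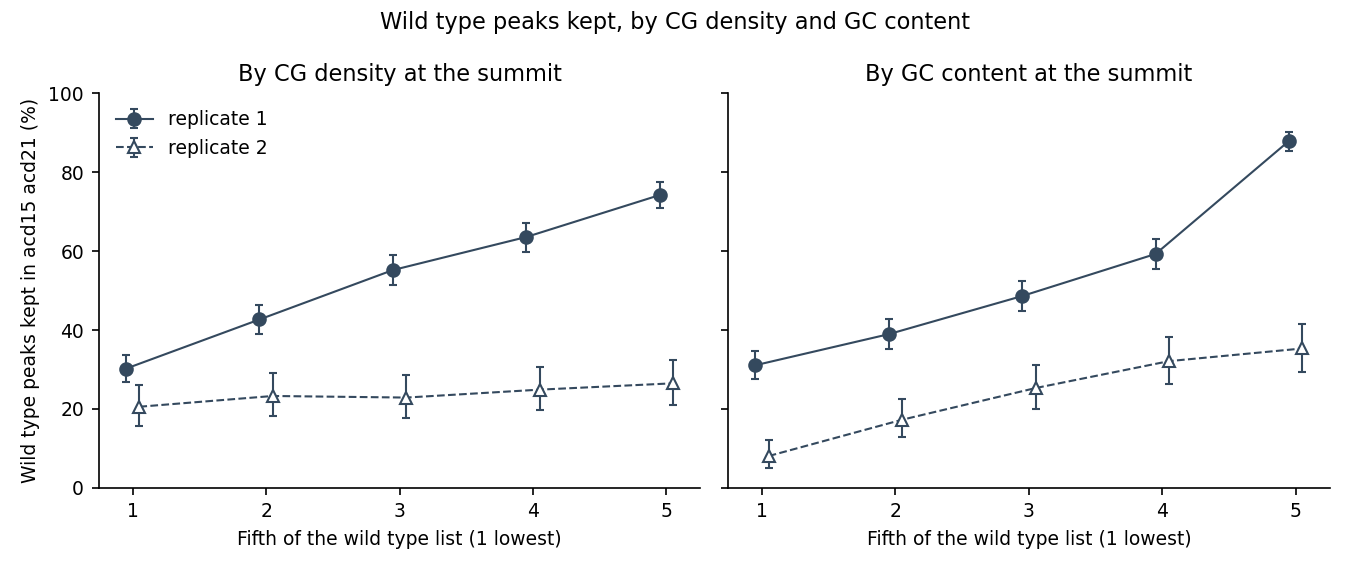
Wild type peaks kept in acd15 acd21 (percent, with 95% exact binomial intervals over peaks), for 5 equal groups of each wild type list by CG density (left) and by GC content (right) within 100 bp of the summit; filled circles are replicate 1 and open triangles replicate 2. The kept share was higher in each GC group than in the one before it at both numbers, and reached 88.0% at replicate 1 and 35.3% at replicate 2.

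In the full lists, peaks in gene-poor bins were kept somewhat more often than those in other bins. The shares were 59.4% (905 of 1524) and 48.4% (953 of 1968) at replicate 1, and 25.3% (172 of 680) and 21.6% (122 of 564) at replicate 2. The mean difference was 7.31 percentage points, higher at 2 of 2 numbers (two-sided exact sign-flip permutation p = 0.5, the smallest possible). By chromosome, the difference ran from 4.87 on chromosome 3 to 15.0 on chromosome 2 at replicate 1, above 0 on 5 of 5 chromosomes. At replicate 2 it ran from -1.96 on chromosome 4 to 11.4 on chromosome 1, above 0 on 4 of 5. At equal length within the number it was above 0 on 5 of 5 chromosomes at replicate 1 and on 3 of 5 at replicate 2, where it was -3.57 on chromosome 2 and -17.0 on chromosome 4. With all lists cut to 404 peaks, the replicate 1 difference was 1.42, against 10.96 in the full lists, and it was above 0 on 2 of 5 chromosomes. With lists cut to a score of at least 50, the mean difference was 5.40, but it was above 0 at only 1 of the 2 numbers. Within 5 groups of GC content the difference was -1.09 at replicate 1 and -4.05 at replicate 2, the opposite direction. With GC content and score both held it was 7.36 at replicate 1, below 0 in 3 of 25 groups, and 0.166 at replicate 2, below 0 in 11 of 25, so its direction depended on what was held.

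Wild type peaks in regions of both ACD15 and ACD21 were kept less often than those in neither. At replicate 1, 879 of 1816 peaks in both were kept (48.4%; 46.1 to 50.7), 272 of 495 in ACD15 only (54.9%), and 684 of 1148 in neither (59.6%; 56.7 to 62.4). At replicate 2, 189 of 862 in both were kept (21.9%; 19.2 to 24.8), 44 of 180 in ACD15 only (24.4%), and 58 of 180 in neither (32.2%; 25.5 to 39.6). Only 33 and 22 peaks lay in ACD21 regions alone. With against without an ACD15 region, the mean difference was -8.95 percentage points, and with against without an ACD21 region -8.01, each lower at 2 of 2 numbers (two-sided exact sign-flip permutation p = 0.5, the smallest possible).

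This difference depended on which peaks were set side by side. Peaks in both ACD regions made up 664 of the 699 peaks in the top 20% of replicate 1 wild type peaks by score, and peaks in that top 20% were kept more often (78.7%, against 36.2% of the lowest 20%). Among the 20% of replicate 1 wild type peaks with the lowest scores, those in both regions were kept at 6.25% (8 of 128) and those in neither at 45.7% (224 of 490). Among the 20% with the highest scores the shares were 77.6% (515 of 664) and 100% (20 of 20). Over the 5 score groups, low to high, the difference between both and neither was -39.5, -46.4, -52.0, -32.2 and -22.4 percentage points at replicate 1. At replicate 2 it was -9.63, -13.2, -12.0, -16.6 and -23.9, with as few as 9 peaks in a class. With replicate 2 cut to equal length, 4 of 5 groups were below 0 and the highest was 38.2, with as few as 2 peaks in a class.

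Set side by side within GC content instead, the 2 replicate numbers parted. Among GC-poor peaks of replicate 1, 39.3% of those in both ACD regions and 35.3% of those in neither were kept, and among GC-rich peaks 72.5% and 67.8%. At replicate 2 the shares were 13.6% and 21.6% among GC-poor peaks, and 32.0% and 39.6% among GC-rich peaks. Within 5 groups of GC content, the ACD15 difference was 5.78 percentage points at replicate 1 and -6.98 at replicate 2. With GC content and score both held, in 25 groups, it was -15.8 at replicate 1, below 0 in 24 of 25 groups, and -13.2 at replicate 2, below 0 in 16 of 25. For ACD21 these values were -18.9 (23 of 25) and -11.8 (19 of 25). These groupings were chosen after the values were seen, and how far GC content itself bears on the calling of peaks was not tested.

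**Figure D3:**
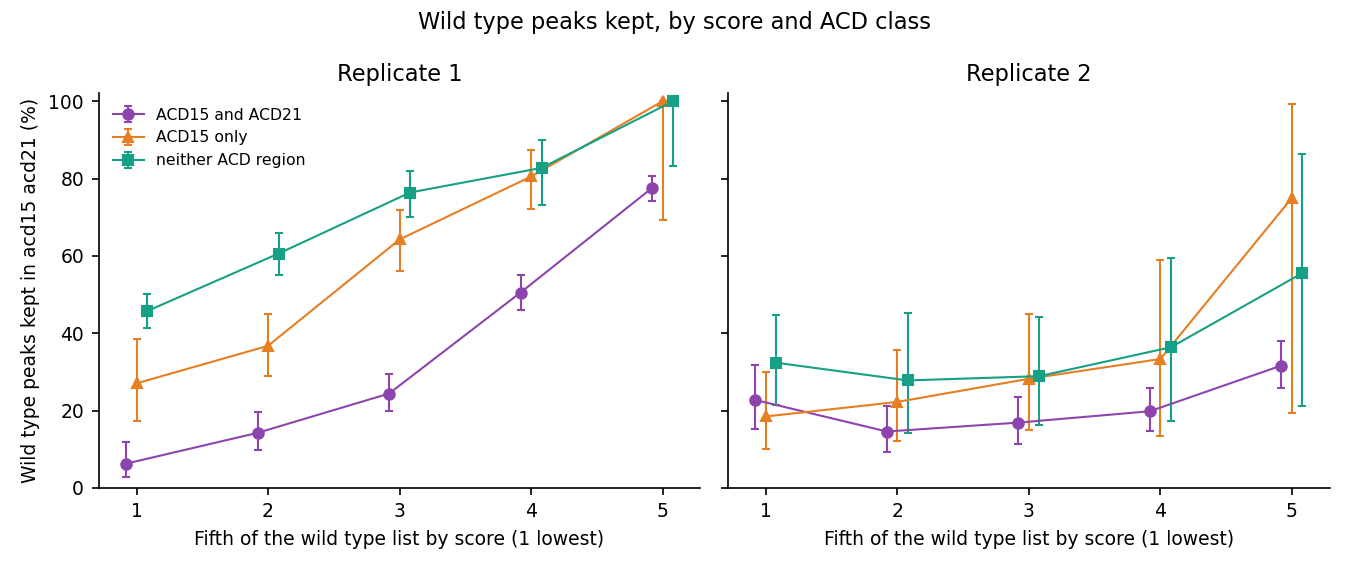
Wild type peaks kept in acd15 acd21 (percent, with 95% exact binomial intervals over peaks) in 5 equal groups of each wild type list by the authors' score, for peaks in both ACD15 and ACD21 regions (circles), in ACD15 regions only (triangles) and in neither (squares); replicate 1 is on the left, replicate 2 on the right. At replicate 1 the circles lie below the squares in all 5 groups, by 22.4 to 52.0 percentage points; at replicate 2 they also lie below, with wide intervals.

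Kept peaks were narrower in acd15 acd21 than in wild type and, in the full lists, most so in regions of both ACD15 and ACD21. At replicate 1, the median width of the 1858 kept peaks was 478.5 bp in acd15 acd21 and 715.5 bp in wild type, and 91.3% were narrower in acd15 acd21. At replicate 2, it was 289 bp in acd15 acd21 and 447 bp in wild type for 294 peaks, 89.1% of them narrower. The median ratio of the widths, acd15 acd21 over wild type, was 0.627 in both ACD regions and 0.798 in neither at replicate 1, and 0.638 and 0.877 at replicate 2. The narrowest peak of a list also differed, at 323 bp in acd15 acd21 and 394 bp in wild type for replicate 1, and 237 bp in acd15 acd21 and 244 bp in wild type for replicate 2, and the part of this floor in the widths was not tested. Their summits lay close together: 84.1% and 86.4% of kept pairs had summits within 100 bp of each other.

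Fold enrichment over background, a value that the authors' peak caller gave each peak, was lower in acd15 acd21 at kept peaks in both ACD regions, with medians of 5.32 in acd15 acd21 and 8.49 in wild type at replicate 1 and of 2.61 in acd15 acd21 and 4.36 in wild type at replicate 2. At kept peaks in neither region the medians were 3.96 in acd15 acd21 and 3.62 in wild type at replicate 1, and 2.95 in acd15 acd21 and 3.37 in wild type at replicate 2. These folds are not normalised between libraries and are given as a description.

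**Figure D4:**
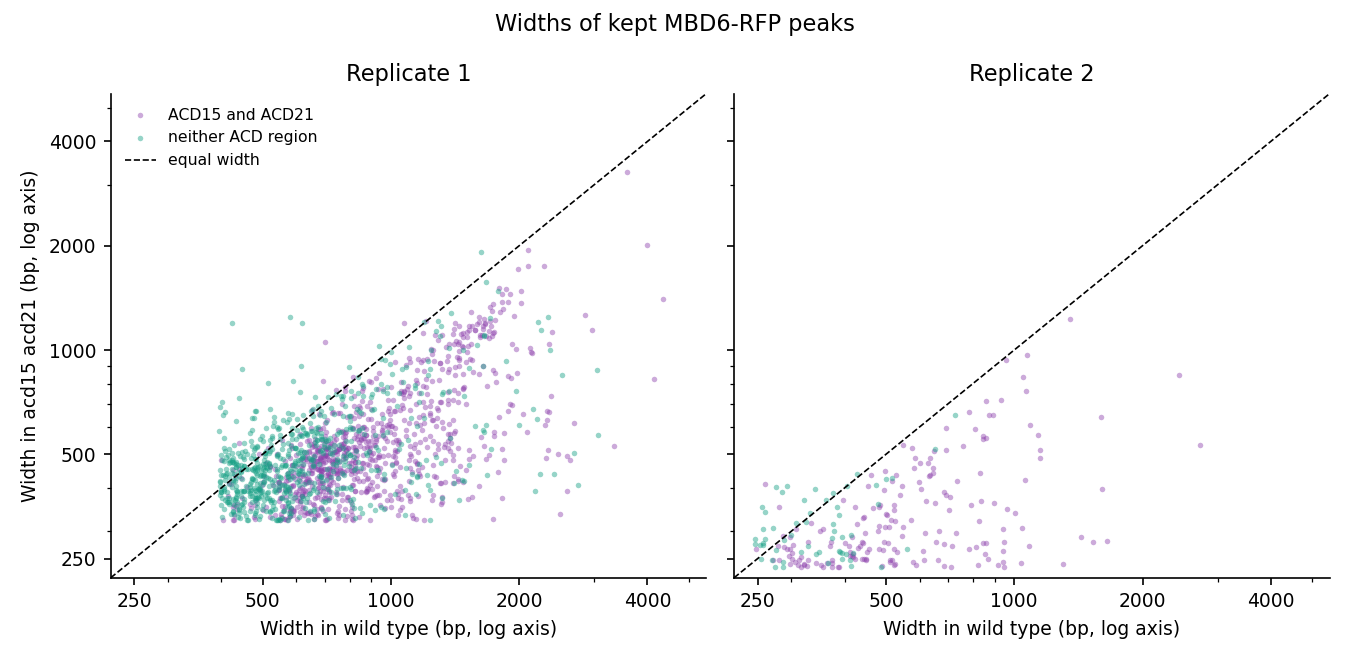
Width of each kept peak in acd15 acd21 (vertical, bp) against its width in wild type (horizontal, bp), both on log axes, for replicate 1 (left) and replicate 2 (right); purple points lie in both ACD15 and ACD21 regions, green points in neither, and the dashed line marks equal width. Most points lie below the line, 91.3% of all kept peaks at replicate 1 and 89.1% at replicate 2.

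The MBD5/MBD6 regions give a set of sites that none of the 4 lists defined. They leave out more of the peaks in acd15 acd21 only than of those also in wild type. At replicate 1 they took in 17.5% of the former and 79.3% of the latter, and at replicate 2, 57.7% and 94.7%. Of the 10534 nuclear regions, acd15 acd21 replicate 1 held a peak in 1704 (16.2%) and wild type replicate 1 in 2602 (24.7%), while acd15 acd21 replicate 2 held one in 284 (2.70%) and wild type replicate 2 in 811 (7.70%). Of the regions with a wild type peak, 53.8% also held an acd15 acd21 peak at replicate 1 and 28.4% at replicate 2. At equal list length within the number these shares were 51.3% and 36.0%, with acd15 acd21 peaks in 15.2% and 2.70% of regions, and wild type peaks in 24.7% and 2.88%. The ratio of acd15 acd21 to wild type regions was higher in CG-dense regions. Over 5 equal groups of regions by CG density, low to high, it was 0.373, 0.470, 0.586, 0.721 and 1.01 at replicate 1. At replicate 2 the lowest group held 0 acd15 acd21 peaks in 2106 regions, which allows up to 0.175% of regions by the exact interval, against 9 in wild type. The other 4 groups had ratios of 0.0882, 0.248, 0.286 and 0.469.

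In the full lists, the ratio was higher in gene-poor bins than in other bins, and higher in regions with neither ACD protein than in regions with both, at both numbers. It was 0.786 in gene-poor and 0.586 in other bins at replicate 1, and 0.420 and 0.282 at replicate 2. In regions with both ACD15 and ACD21 it was 0.582 at replicate 1 and 0.296 at replicate 2, and in regions with neither 0.914 and 0.909. In regions with ACD15 only it was 0.729 and 0.413, and in the 129 regions with ACD21 only 1 and 0.375, so the order of the 4 classes differed between the numbers. At equal length within the number, replicate 2 ratios were much higher: 1.45 in gene-poor and 0.620 in other bins, 0.673 in regions with both, and 6.60 and 12.5 in regions with ACD15 only and with neither, where wild type held a peak in just 5 and 4 regions. The replicate 1 ratios at equal length were 0.732 in gene-poor and 0.557 in other bins, and 0.558 in regions with both and 0.828 in regions with neither. Regions with neither were CG-denser (median 3.43 per 100 bp, against 2.58 with both) and narrower (431 bp, against 1153 bp). Within the highest CG group the ratio at replicate 1 was 1.02 in regions with both and 0.979 in regions with neither, and at replicate 2 it was 0.425 and 0.837. In the middle CG group at replicate 1 it was 0.567 with both and 0.895 with neither. At equal length within the number, the ratio by CG density at replicate 2 was 0 in the lowest and 1.35 in the highest group. The ratio for replicate 2 in regions with neither rests on 50 acd15 acd21 and 55 wild type regions.

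**Figure D5:**
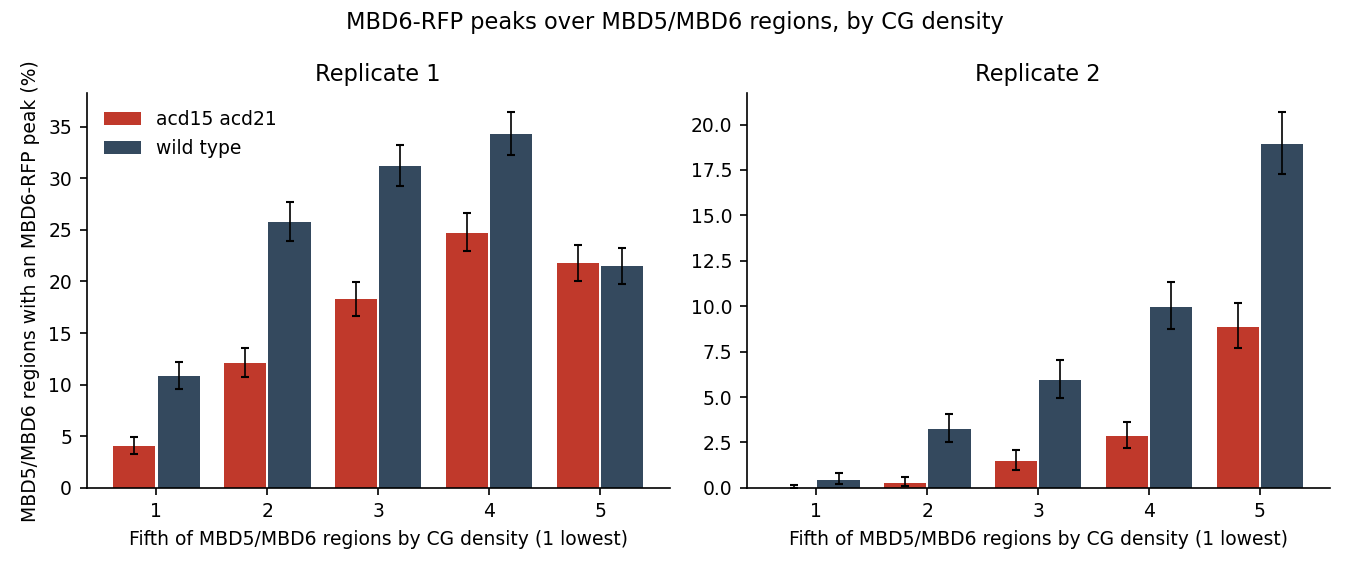
Share of MBD5/MBD6 regions that hold an MBD6-RFP peak (percent of regions, bars from 0, with 95% exact binomial intervals over regions), in 5 equal groups of the regions by CG density, for acd15 acd21 (red) and wild type (dark); replicate 1 is on the left and replicate 2 on the right, on axes of different length. In the highest group of replicate 1 the bars stand at 21.7% in acd15 acd21 and 21.5% in wild type; in the other groups of both replicates the acd15 acd21 bar is lower.

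The sites named below are the first by score of each pattern of kept and lost peaks, and are given as examples. Where a pattern holds more sites than were named, they do not stand for the rest. The first site in all 4 lists, on chromosome 3 at 12133465 to 12135447, lay in a gene-poor bin 1558 bp from the protein-coding gene AT3G30525, in an ACD15, an ACD21 and an MBD5/MBD6 region. Its fold enrichment was 11.8 and 7.16 in acd15 acd21 replicates 1 and 2, against 14.4 and 21.3 in wild type. The second, on chromosome 2 at 4221293 to 4222100, had folds of 7.58 and 4.05 in acd15 acd21, against 6.94 and 6.23 in wild type. The remaining sites in all 4 lists, on chromosome 2 at 5227174 to 5228598 and on chromosome 1 at 12999948 to 13000408, lay outside ACD15 and ACD21 regions.

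Of the 8 sites in both wild type lists and neither acd15 acd21 list, 7 lay in ACD15 and ACD21 regions (87.5%). This was near the shares of the 155 sites in both wild type lists and acd15 acd21 replicate 1 only, 91.6% for ACD15 and 90.3% for ACD21. The first of the 8, on chromosome 3 at 8231205 to 8232428, lay 2204 bp upstream of RLP38, a receptor-like protein gene. A long noncoding RNA gene, AT3G04385, was nearer, at 1104 bp. The wild type folds of this site were 17.96 at replicate 1 and 7.86 at replicate 2. The next, on chromosome 3 at 11396247 to 11397212, lay with its summit 871 bp upstream of AT3G29580, with folds of 14.4 and 7.08. The 2 sites in both acd15 acd21 lists and no wild type list lay in pseudogenes of gene-poor bins, AT4G06670 and AT5G32420, outside ACD15 and ACD21 regions.

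At replicate 1, the 10 kept sites of highest score had folds from 12.5 to 35.0 in acd15 acd21 and from 18.2 to 27.8 in wild type. Of these 10, 9 lay in ACD15 and ACD21 regions, as did 97.8% of the 404 wild type replicate 1 peaks of highest score. Near MYB47, a MYB transcription factor gene, the site on chromosome 1 at 6454391 to 6456409 had folds of 28.5 in acd15 acd21 and 27.7 in wild type, and it was not in the acd15 acd21 replicate 2 list although its wild type replicate 2 fold was 34.8. The site 1638 bp upstream of SOS2, a protein kinase gene of the salt stress response, had folds of 31.5 in acd15 acd21 and 27.8 in wild type at replicate 1, and was lost at replicate 2 against a wild type fold of 32.2. Of the 10 first sites kept at replicate 1, 8 had a wild type replicate 2 peak, with folds from 27.5 to 34.8, and none of these 8 had an acd15 acd21 replicate 2 peak. The sites near MYB47 and SOS2 and that at AT1G23300 were also among the 10 first lost at replicate 2. The site on chromosome 3 at 11726055 to 11727777 had its summit in the pseudogene AT3G29805, 1071 bp upstream of COBL2, a COBRA-like gene. Its folds at replicate 1 were 35.0 in acd15 acd21 and 24.3 in wild type. It was the highest-scoring peak of the acd15 acd21 replicate 1 list. It had a wild type replicate 2 fold of 31.4 and no acd15 acd21 replicate 2 peak.

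The 10 lost sites of highest score at replicate 1 had wild type folds from 15.2 to 21.3 and CG densities from 3.98 to 8.46 per 100 bp. All 10 lay in ACD15, ACD21 and MBD5/MBD6 regions. Of the 404 wild type replicate 1 peaks of highest score, 97.8% lay in both ACD regions and 98.0% in MBD5/MBD6 regions. Among the 10 lost sites, summits lay 522 bp upstream of AT1G67750, 133 bp upstream of FIP1, and 1691 bp upstream of HAT14, a homeobox-leucine zipper gene. Another lay 556 bp upstream of FRO7, a ferric-chelate reductase gene of the chloroplast, and 7 bp from the pseudogene AT5G49746. The summit near TKPR2, which encodes a reductase needed for the pollen wall, was 1550 bp past the end of the gene.

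At replicate 2, the 10 kept and the 10 lost sites of highest score all lay in ACD15, ACD21 and MBD5/MBD6 regions. Of the 404 wild type replicate 2 peaks of highest score, 90.1% lay in both ACD regions and 96.8% in MBD5/MBD6 regions. Kept sites had folds from 3.57 to 6.92 in acd15 acd21 and from 6.16 to 20.5 in wild type. Among them was the site 1111 bp upstream of PRP2, which encodes a proline-rich protein of the cell wall (5.65 in acd15 acd21 and 18.6 in wild type). Another lay 2943 bp upstream of SNC1, an immune receptor gene (5.60 in acd15 acd21 and 6.69 in wild type). The noncoding RNA gene AT4G16892 was nearer to it, at 578 bp. The retroelement copy SADHU1-3 held a site with folds of 4.49 in acd15 acd21 and 20.5 in wild type. Lost sites had wild type folds from 8.59 to 34.8 and included the promoter of AT5G27950 (32.9) and sites near HB23, a zinc finger homeodomain gene (10.6), and TPPI, a trehalose phosphatase gene (11.4).

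Repeated windows and 1 short motif were looked at after the sequences were seen. Windows in which over 20% of the 10-base words were repeated made up 1.08% of genome windows of the same length. They made up 8.23% of kept and 3.98% of lost peaks at replicate 1, and 7.48% of kept and 14.7% of lost peaks at replicate 2, the opposite order. The letters TTCCCGCC, searched on both strands and known as a binding sequence of E2F cell-cycle factors, stood in 0.348% of genome windows. They stood in 5.71% of kept and 2.69% of lost peaks at replicate 1, and in 1.02% of kept and 8.84% of lost peaks at replicate 2. The top window kept at replicate 1 and the first window held in both wild type lists only both hold them. No order of kept and lost over both numbers can be given for either feature.

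Peaks found in acd15 acd21 only were of another kind at replicate 1 than the shared ones. They numbered 2055 (51.5% of the list), and 67.8% of their summits lay in protein-coding gene bodies, against 15.2% of those also in wild type. The share of the genome in gene bodies is not given here. Only 8.52% of the peaks in acd15 acd21 only were in ACD15 regions and 17.5% in MBD5/MBD6 regions, against 59.6% and 79.3% of the shared ones. Their median CG densities were equal, at 5.47 per 100 bp. At replicate 2, 104 peaks were in acd15 acd21 only (25.7%), with 27.9% of summits in gene bodies, against 16.7%, and 57.7% in MBD5/MBD6 regions, against 94.7%. In replicate 1, 1465 of the 2055 lay where a number was missing from the wild type list (71.3%, against 66.8% of the genome).

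Peaks at genes of the pathway were few. Over all 37899 annotated genes, a peak between 1 kb upstream of the start and the gene's end was found for 10.4% in acd15 acd21 replicate 1 and 8.38% in wild type replicate 1, and for 1.02% in acd15 acd21 replicate 2 and 2.46% in wild type replicate 2. Of 19 genes silenced by methylation or imprinted, 3 held a peak in acd15 acd21 replicate 1 and 4 in wild type replicate 1, and none in either replicate 2 list. An MBD5/MBD6 region was held by 14 of the 19, but its share over all genes is not given here. HDG8, an imprinted homeodomain gene, had folds of 5.43 in acd15 acd21 and 6.89 in wild type, and AGL36, an imprinted MADS-box gene, 4.55 in acd15 acd21 and 4.18 in wild type. HDG9 had a peak in acd15 acd21 alone (3.77), and YUC10, an imprinted auxin synthesis gene, and SNC1 in wild type alone (3.66 and 4.55).

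Among 10 genes of RNA-directed DNA methylation, DCL3, which makes the small RNAs that guide it, was the only one with a peak (2.67 in acd15 acd21 and 4.22 in wild type, replicate 1). Among 13 genes of maintenance methylation and heterochromatin, VIM3, a partner of the maintenance methyltransferase, and DDM1, a chromatin remodeller, had a peak in acd15 acd21 replicate 1 only (5.56 and 2.38). FWA and SDC, known targets of methylation silencing, held MBD5/MBD6 regions but no MBD6-RFP peak in any of the 4 lists. MBD5 and MBD6 themselves, the 4 DNA demethylase genes, and the 3 matched genes of the MBD7 complex held none either. With counts this small, nothing is read from these lists, and their shares were not tested against those over all genes.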

How the data were processed

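Per the labels' protocols, 15 PCR cycles were used per library. The tools used were MACS2 2.1.0, deepTools 3.0.2, HOMER, Picard, Bowtie2 and Trim Galore, with the build TAIR10, per the submitters' processing notes; no settings are given. The authors deposited 1 peak list per library, called on single libraries, with a score (10 times −log10 q), a fold enrichment (a ratio to background) and −log10 p and q. Per the file names, regions prone to unspecific enrichment had been taken out. The authors' merged lists give positions only in the columns used here.

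Peaks were placed on the TAIR10.1 RefSeq copy, whose annotation has no transposon features. CG density and GC content were counted within 100 bp of the summit. Genotypes were compared by exact permutation of libraries, and classes of wild type peaks by exact sign flips over the replicate numbers. Intervals are exact (Clopper-Pearson, 95%). Overlap functions were tested on simulated data. Python 3.11.15, numpy 2.4.6, pandas 2.3.3 and scipy 1.17.1 were used. Named sites were the first 10 per pattern by mean score percentile, each with its nearest annotated gene and its nearest protein-coding gene. Of 58 listed genes, 51 were matched by symbol. The comparison, members and lists were chosen with earlier results of these data known.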

Additional observations from a re-analysis of the deposited data

How the results depend on the processing

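The ACD15, ACD21 and MBD5/MBD6 shares kept their direction under all 6 other settings each (equal list lengths, a score of at least 50, every entry counted, summits inside regions, the replicate block), from -29.8 to -18.8, from -32.5 to -23.3 and from -24.5 to -6.31 percentage points. Counting every entry could not change these values, since no list held identical intervals, and the replicate block keeps the difference of the means by construction. Leaving out each library in turn gave -41.7 to -10.6, -37.2 to -10.5 and -41.0 to -3.28. The gene-poor share turned from -0.72 to 6.02 at equal length within the number, 12.9 at equal length over all lists, 3.30 with a limit of 10% exons and 3.19 for the longest gene-poor run of each chromosome; without 1 library it ran from -12.4 to 11.0. The median CG density difference ran from -0.25 to 0.48 per 100 bp, and from -1.49 to 1.49 without 1 library. Median GC content was 3.48 points higher in acd15 acd21, but -1.74 without wild type replicate 1, 8.71 without wild type replicate 2 and -0.75 without acd15 acd21 replicate 2. Kept shares by zone and CG density turned to -2.57 within groups of GC content (zone) and -1.85 within groups of GC content and score (CG), and that by ACD21 region to 1.63 within groups of GC content; the cause was not tested. Without 1 library these contrasts are those of 1 number: 3.66 to 11.0 (zone), 3.07 to 26.2 (CG), -10.1 to -7.84 (ACD15) and -9.40 to -6.61 (ACD21). The kept share was 43.4% and 18.8% with 50% of the peak overlapping, 50.1% at replicate 1 with summits within 250 bp, 50.7% and 14.0% with a score of at least 50, 49.3% and 29.5% at equal length within the number (29.5% also over all lists at replicate 2), and 81.6% at replicate 1 without the lost peaks beside a missing number, a removal that can only raise it. For MBD5/MBD6 regions it was 51.3% and 35.97% at equal length. The replicate block, by sign flips, gave the same differences, -26.2 for ACD15 and -23.9 for ACD21, with a smallest p of 0.5. The labels do not say that a number pairs samples. Deviations of same-numbered lists over 10534 regions correlated at 0.508, with 2 pairs only, and those of crossed lists at -0.508, by construction. Replicate 1 was the longer list in both genotypes, so this correlation cannot tell whether a number pairs samples. Without the block, counting a peak kept in either acd15 acd21 list, the kept-share differences were 0.836 (zone), 13.9 (CG), -5.07 (ACD15) and -2.40 (ACD21), those for zone and ACD21 with an exact p of 1. With a score of at least 50, the zone and CG differences were 5.40 and 13.4, each above 0 at only 1 of the 2 numbers. Depth is unknown, so weak sites cannot be told from uncalled ones.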
